A study of Rattus norvegicus with 12 samples.

Results

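Genes that mark the choroid plexus were examined in cortical RNA of young and aged rats as a check on dissection. The set comprised Ttr, Kl, Folr1, Aqp1, Clic6 and Slc4a5, and its members were every probe set whose gene symbol in the array's annotation was one of these 6. Of the 31099 probe sets on the array, 5 carried 1 of the symbols alone and stood for 4 of the 6 genes: 1 probe set each for Ttr, Kl and Folr1, and 2 for Aqp1. Clic6 and Slc4a5 had no probe set under their symbols in the annotation used, so their expression was not analysed here. The study placed RNA from 12 male Fischer 344 (F344) rats on Affymetrix rat arrays, 1 array a rat, from 6 young rats aged 3 to 5 months and 6 aged rats of 21 to 23 months. By title the tissue was parietal cortex, but the labels' tissue field has frontal cortex. Rats of both age groups had been implanted with emitters that record brain and muscle activity and trained in the Morris water maze, and were killed after its last trial, and the tissue was dissected in chilled artificial cerebrospinal fluid. No array was left out of any value unless that is stated.

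The choroid plexus is a sheet of epithelium that hangs into the brain ventricles and secretes cerebrospinal fluid. Its cells pump ions and bicarbonate toward the ventricle, pass water through aquaporins, and make carrier proteins for the fluid, of which transthyretin, encoded by Ttr, is the best known. This epithelium is no part of the cortex, which is why its genes serve as a check on a cortical dissection. Several of the markers are also made in small amounts by other brain cells. In bulk tissue, fewer cells of a type and less RNA per cell cannot be told apart.

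Every array had been scaled to a trimmed mean of 500.1 in signal intensity. Median signals ran from 161.6 to 171.9 on the young arrays and from 167.9 to 194.3 on the aged arrays, so that differences are relative to a scale that the authors set. Aged rat 2 was least like the other arrays, with a mean correlation of 0.946, and aged rat 6 followed at 0.951. The number of arrays limits the precision. A probe set was tested where its log2 signal was over 4.3, a signal of 19.7, on at least 3 arrays, which held for 28193 probe sets and for all 5 member probe sets, Kl on exactly 3 arrays. The study chose 4.3 on signals computed by the gcRMA method, and whether the deposited values lie on that scale is not given. On single arrays 83.3% to 87.1% of probe sets were over it. Being over the cutoff here is therefore not the presence call of the study. Called differences are those with a limma adjusted p under 0.05 over all probe sets tested.

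Ttr, which encodes the carrier of thyroxine and of the retinol-binding protein in cerebrospinal fluid, was the most variable member among those over the cutoff on all arrays. The Ttr signals of young rats 1 to 6 were 1417, 89.3, 314, 94.0, 146 and 128. The Ttr signals of aged rats 1 to 6 were 77.8, 629, 180, 153, 356 and 123. Young rat 1 stood far above all others, aged rats 2 and 5 and young rat 3 followed, and the other 5 young rats, at 89.3 to 314, lay within the range of the aged rats. Mean signal was 365 ± 522 (SD, n = 6) in young and 253 ± 207 (SD, n = 6) in aged rats, with medians of 137 and 167. On the log2 scale the aged minus young difference was -0.039 (SE 0.71, 95% interval -1.59 to 1.51), a fold of 0.973 with an interval of 0.332 to 2.86 (limma adjusted p = 0.997; exact two-sided permutation p = 0.959 over all splits into 6 and 6). A fall or a rise of any size within this interval is compatible with the Ttr signals of these 12 rats. The sign turned when young rat 1 (0.52), young rat 3 (0.087), aged rat 1 (0.23), aged rat 4 (0.034) or aged rat 6 (0.098) was left out.

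**Figure D1:**
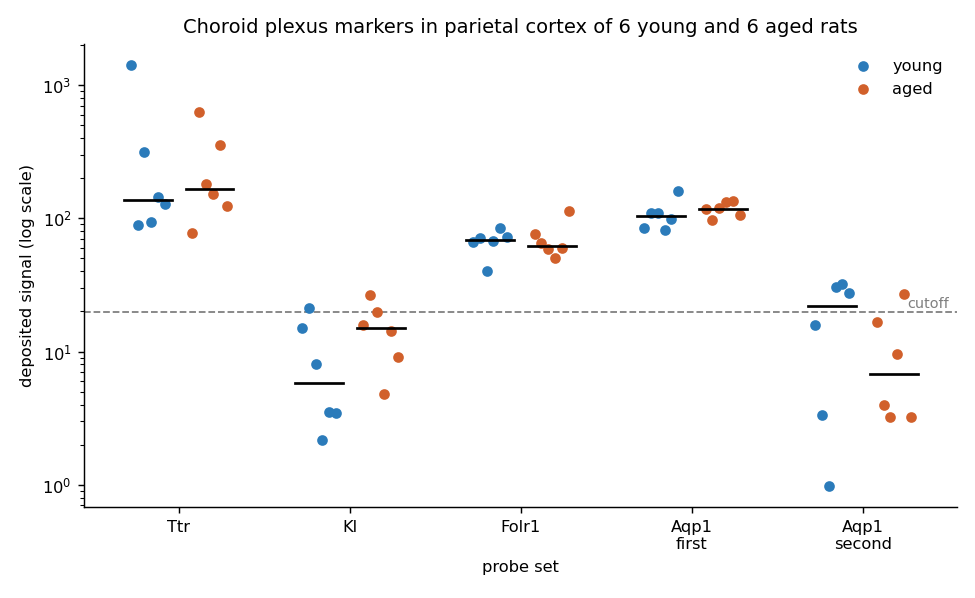
Deposited signal (log axis) of each of the 5 member probe sets in every rat, with 1 point a rat, young in blue and aged in orange, black bars at group medians, and a dashed line at the cutoff of 19.7. The points of young and aged rats overlap in all 5 probe sets, Ttr spreads from 77.8 to 1417, and most points of Kl and of the second Aqp1 probe set lie under the line.

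Kl, which encodes klotho, a transmembrane co-receptor for the hormone FGF23 that is also shed into the fluid, was near or under the cutoff in most rats. The Kl signals of young rats 1 to 6 were 15.0, 21.4, 8.03, 2.15, 3.54 and 3.44. The Kl signals of aged rats 1 to 6 were 15.8, 26.6, 19.8, 4.83, 14.3 and 9.16. Young rat 2 and aged rats 2 and 3 were over the cutoff, aged rat 3 barely, and the groups overlapped. Mean signal was 8.92 ± 7.72 (SD, n = 6) in young and 15.1 ± 7.69 (SD, n = 6) in aged rats. The log2 difference was 1.05 (SE 0.60, 95% interval -0.26 to 2.36) and did not pass the test (limma adjusted p = 0.720; exact two-sided permutation p = 0.130). Signals under the cutoff are the least exact on the array, and a fold between them is given only on this scale.

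Folr1, which encodes folate receptor alpha, the protein that carries folate across the choroid epithelium, varied less between rats than Ttr did. The Folr1 signals of young rats 1 to 6 were 66.3, 71.0, 40.5, 67.5, 84.1 and 72.8. The Folr1 signals of aged rats 1 to 6 were 76.3, 65.2, 58.9, 50.8, 59.8 and 113. Young rat 3 was the lowest and aged rat 6 the highest, and the age groups overlapped. Mean signal was 67.0 ± 14.5 (SD, n = 6) in young and 70.6 ± 22.4 (SD, n = 6) in aged rats, a log2 difference of 0.058 (SE 0.21, 95% interval -0.40 to 0.52; limma adjusted p = 0.979; exact two-sided permutation p = 0.805). This interval spans folds of 0.757 to 1.43, and the difference was -0.081 under quantile normalization and -0.012 under median centring. Median centring moved the median difference of all probe sets from 0.029 to -0.041, so a sign this close to 0 turns with the shift common to the array.

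Aqp1, which encodes the water channel on the ventricular face of the choroid epithelium, was read by 2 probe sets, called here the first and the second by their mean signal, that differed from rat to rat. The signals of the first Aqp1 probe set in young rats 1 to 6 were 84.7, 109, 110, 81.7, 99.1 and 160. The signals of the first Aqp1 probe set in aged rats 1 to 6 were 117, 97.3, 119, 132, 135 and 107. Young rat 6 was the highest of all 12, and the other rats of both groups lay within 81.7 to 135. Mean signal of this probe set was 107 ± 28.2 (SD, n = 6) in young and 118 ± 14.4 (SD, n = 6) in aged rats, a log2 difference of 0.16 (SE 0.15, 95% interval -0.18 to 0.50; limma adjusted p = 0.853; exact two-sided permutation p = 0.333), with folds of 0.885 to 1.41 in the interval. The signals of the second Aqp1 probe set in young rats 1 to 6 were 15.9, 3.33, 0.974, 30.5, 32.3 and 27.7. The signals of the second Aqp1 probe set in aged rats 1 to 6 were 16.8, 3.95, 3.22, 9.59, 26.9 and 3.20. Young rats 4, 5 and 6 and aged rat 5 were over the cutoff, and the rest were under it. The log2 difference of this probe set was -0.50 (SE 0.94, 95% interval -2.55 to 1.55; limma adjusted p = 0.949; exact two-sided permutation p = 0.643), opposite in sign to that of the other, and the log2 signals of the pair correlated with r = 0.046 over 12 rats.

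None of the 5 member probe sets was called, against 7 of all 28193 (0.0248%), and none had an unadjusted limma p under 0.05, against 2198 of all 28193 (7.8%). With so small a share called on the whole array, an absence of calls among 5 probe sets says little about them. In 136 fits of the members under alternative settings, their adjusted p lay between 0.365 and 0.999.

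**Figure D2:**
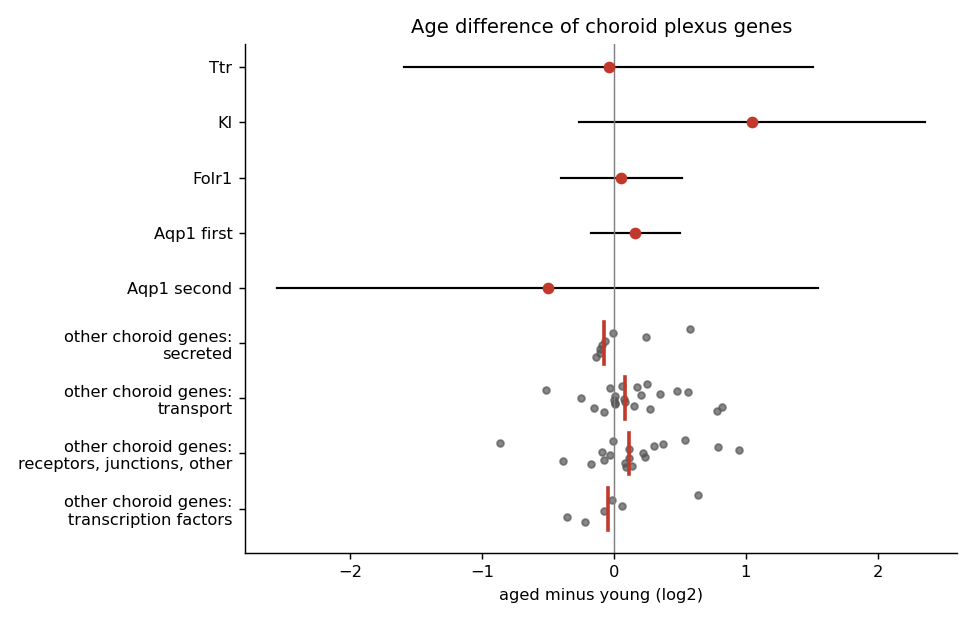
Aged minus young difference in log2 signal (x axis) for the 5 member probe sets, as red points with 95% intervals, and for the other choroid plexus genes by list, as grey points with a red bar at each list's median. The intervals of all 5 members span 0, the narrowest being that of the first Aqp1 probe set at -0.18 to 0.50 and the widest that of the second at -2.55 to 1.55.

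1 further probe set lists Ttr together with the metallothionein symbols Mt1f and Mt1, so it names no single gene and was kept apart. Its signal was 434 ± 39.7 (SD, n = 6) in young and 486 ± 91.4 (SD, n = 6) in aged rats, and its highest signal was 1.73 times its lowest (exact two-sided permutation p = 0.262). It did not show the spread of the probe set that names Ttr alone.

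Promoter sequences are shown for Aqp1, with a signal over the cutoff on every array in 1 of its probe sets, and for Kl, over it on 3. RefSeq windows on the GRCr8 build run from 250 bases before the start site to 50 after it. The Aqp1 window lies at chr4:85812534-85812833 on the plus strand, and the Kl window at chr12:5325753-5326052 on the plus strand. Capitals mark matches to 6 motifs searched on both strands: TAATCC and TAATTA of homeobox factors, TGTTTAC of forkhead factors, the CCAAT box, GTTGCCA as part of the site of RFX factors, and TATAAA of the TATA box.
Aqp1: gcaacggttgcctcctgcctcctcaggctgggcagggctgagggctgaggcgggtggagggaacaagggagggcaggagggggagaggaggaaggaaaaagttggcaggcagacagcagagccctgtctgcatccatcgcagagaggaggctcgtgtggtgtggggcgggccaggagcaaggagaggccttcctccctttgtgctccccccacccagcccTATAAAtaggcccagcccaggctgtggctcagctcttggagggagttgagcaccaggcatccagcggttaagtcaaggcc
Kl: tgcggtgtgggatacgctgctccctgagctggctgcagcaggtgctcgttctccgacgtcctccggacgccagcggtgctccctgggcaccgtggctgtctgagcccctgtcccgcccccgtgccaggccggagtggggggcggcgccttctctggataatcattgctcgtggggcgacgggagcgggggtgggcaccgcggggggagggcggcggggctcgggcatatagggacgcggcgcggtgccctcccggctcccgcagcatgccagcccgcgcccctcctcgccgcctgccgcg
The Aqp1 window holds TATAAA, which starts 30 bases before the start site and occurs in 14.2% of 33469 promoters of this length. The Kl window holds none of the 6. The window of Ttr holds CCAAT on the opposite strand, a motif found on either strand in 37.5% of promoters. This match lies past the start site, at position 17 from it. The window of Slc4a5 holds CCAAT 2 times on the same strand and 1 time on the opposite strand, all before the start site. The motif TAATCC (in 7.17% of promoters), the motif TAATTA (5.36%), the motif TGTTTAC (3.78%) and the motif GTTGCCA (4.56%) had no match in the windows of Ttr, Kl, Aqp1 or Slc4a5. These matches are descriptions of letters, and windows of Folr1 and Clic6 are not among those described.

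The spread of Ttr between rats was large for its level. Its highest signal was 18.2 times its lowest, against a median of 1.82 over all tested probe sets. The SD of its log2 signal within age groups was 1.32, against a median of 0.25, and exceeded 99.98% of the 4151 tested probe sets whose mean lay within 0.5 log2 of its own. Of the 14578 tested probe sets with a mean at or above that of Ttr, it alone had a ratio of highest to lowest signal of this size. For Folr1 and the first Aqp1 probe set the ratios were 2.79 and 1.95, and their SDs of 0.38 and 0.28 exceeded 47.3% and 38.02% of probe sets at their own levels. Kl had a ratio of 12.3 and an SD of 1.12, which exceeded 22.6% of tested probe sets at its low level. The ratio of the second Aqp1 probe set was 33.2, and its SD of 1.75 exceeded 94.5% of tested probe sets at its level. Both means lay under the cutoff, where a probe set was tested only if at least 3 arrays rose over it. That filter favours a wide spread, so these shares do not say how variable Kl and the second Aqp1 probe set were for their level. With 1 array a rat, spread between rats and spread between arrays cannot be told apart.

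**Figure D3:**
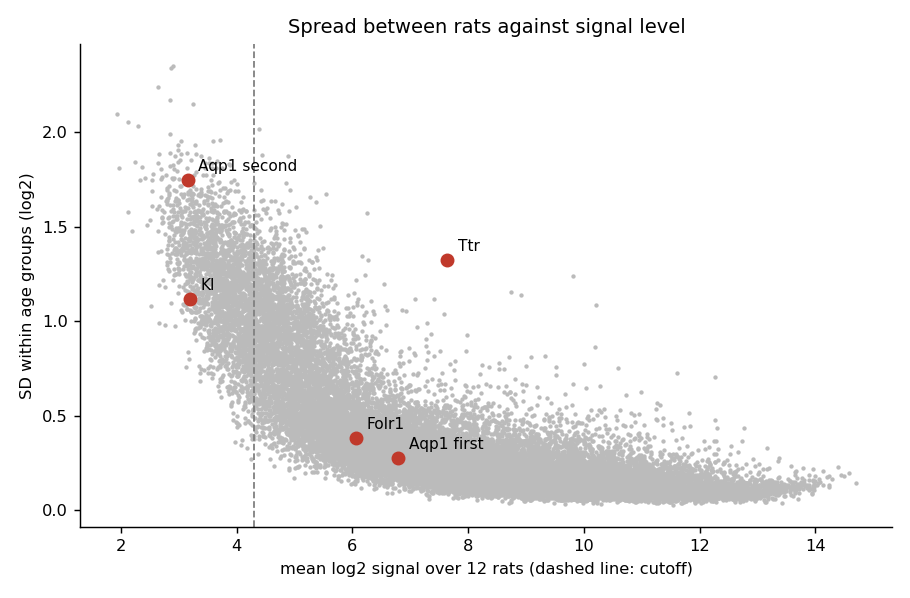
SD of log2 signal within age groups (y axis) against mean log2 signal over 12 rats (x axis) for every tested probe set in grey and the 5 member probe sets in red, with a dashed line at the cutoff of 4.3. Ttr lies above nearly all probe sets of its level at an SD of 1.32, while Folr1 and the first Aqp1 probe set lie inside the cloud at 0.38 and 0.28.

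The sample codes in the labels fall into a lower series of 7 rats (young 1 to 3 and aged 1 to 4) and a higher series of 5 (young 4 to 6 and aged 5 and 6), and the labels do not say what the codes stand for. Some members moved with this split. Kl was over the cutoff in 3 of 7 rats of the lower series and in 0 of 5 of the higher, with medians of 15.8 and 3.54. The second Aqp1 probe set went the other way, over the cutoff in 0 of 7 and 4 of 5 rats, with medians of 3.95 and 27.7. For Ttr the medians were 180 in the lower and 128 in the higher series, for Folr1 65.2 and 72.8, and for the first Aqp1 probe set 110 and 107. The part of the code series in the age differences was examined by fitting it as a block, which gave log2 differences of -0.16 for Ttr, 0.83 for Kl, 0.12 for Folr1, 0.18 for the first Aqp1 probe set and -0.20 for the second Aqp1 probe set. Among rats of the lower series alone Ttr differed by -0.83 (SE 1.07), and among those of the higher by 0.80 (SE 0.51). The Kl difference was 0.046 (SE 0.64) in the lower series and 1.95 (SE 0.33) in the higher (limma adjusted p = 0.672). That of the second Aqp1 probe set was 0.85 (SE 1.03) and -1.70 (SE 0.93). These fits rest on few rats, and whether the age difference varies between the series was not tested.

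Whether the members varied together from rat to rat was examined against Ttr. Across the 12 rats, Kl correlated with Ttr at r = 0.39 (two-sided permutation p = 0.211) and rho = 0.21 (p = 0.513). Folr1 correlated with Ttr at r = -0.33 (permutation p = 0.296) and rho = -0.61 (p = 0.0388, adjusted p = 0.117), so that its ranks ran against those of Ttr without passing the correction over 3 pairs. The first Aqp1 probe set correlated at r = -0.29 (permutation p = 0.351) and rho = -0.056 (p = 0.870). The adjusted p of all 3 Pearson correlations was 0.351. Young rat 1, with a Ttr signal of 1417, had a Folr1 signal of 66.3 and an Aqp1 signal of 84.7, the latter the next to lowest of 12. Aged rat 2, the next highest in Ttr at 629, had the highest Kl signal at 26.6, with Folr1 at 65.2 and Aqp1 at 97.3. Without these 2 rats, the farthest from the Ttr median, r over the remaining 10 was 0.12 for Kl, -0.58 for Folr1 and 0.30 for Aqp1, and leaving out young rat 1 alone brought r for Aqp1 to 0.022. With the group means removed, r over the 12 rats was 0.45, -0.32 and -0.30. Within the lower code series of 7 rats, r was 0.11 for Kl, -0.15 for Folr1 and -0.82 for Aqp1 (exact two-sided permutation p = 0.0248, adjusted p = 0.0744; rho = -0.61, p = 0.167), and the higher series, of 5 rats, fell short of the 6 taken as the least for a correlation, so whether the relation differs between the series was not tested.

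**Figure D4:**
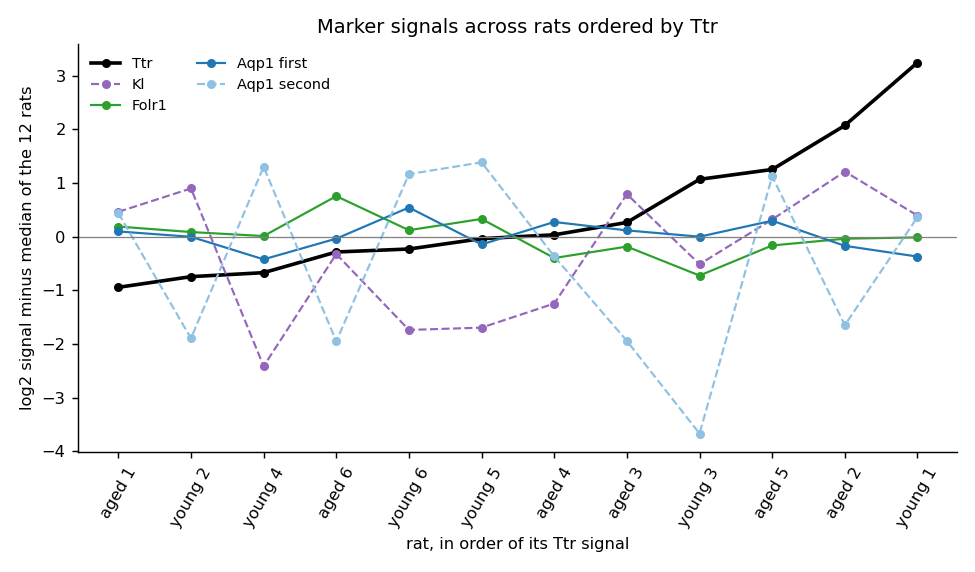
Log2 signal of each member probe set minus its median over the 12 rats (y axis), with rats in order of their Ttr signal (x axis), solid lines for Ttr, Folr1 and the first Aqp1 probe set and dashed lines for the probe sets mostly under the cutoff. Ttr climbs from aged rat 1 to young rat 1, while Folr1 and the first Aqp1 probe set, with ratios of 2.79 and 1.95, move much less.

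Further genes of the choroid plexus were read from 4 lists, of secreted proteins, transporters, receptors and junction proteins, and transcription factors. Of 68 listed genes, 59 had a probe set of their own symbol and 55 were tested, taking for each gene the probe set of highest mean. Many of these genes are also used by neurons, glia, vessels or meninges, such as Enpp2 in oligodendrocytes and Htr2c in neurons. 33 of the 55 (60%) were higher and 22 lower in aged rats, against 56.9% of all 13253 genes higher, and the median log2 difference was 0.060 against 0.024 for all genes. Other scalings move all genes. Under quantile normalization, 23 of 55 (41.8%) were higher, with a median of -0.020, against 50.8% of all genes and a median of 0.0019. Under median centring, 27 of 55 (49.1%) were higher, with a median of -0.010, against 37.8% of all genes and a median of -0.047. None of the 55 was called, against 4 of 13253 (0.0302%), and 3 had an unadjusted limma p under 0.05, against 8.28% of all genes. These 3, Bmp7, Ace and Cldn1, were all higher in aged rats, against 5.98% of all genes higher at that level.

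By list, 2 of 8 secreted proteins, 17 of 22 transporters, 12 of 19 receptors and junction proteins and 2 of 6 transcription factors were higher in aged rats, and under quantile normalization, with 50.8% of all genes higher, 13 of the transporters and 7 of the receptors and junction proteins were. Among the secreted proteins, Bmp7, a growth factor of the BMP family, measured 82.3 ± 21.0 (SD, n = 6) in young and 120 ± 11.97 in aged rats, a log2 difference of 0.58 (SE 0.15; limma adjusted p = 0.334). Enpp2, the secreted enzyme autotaxin, had means of 1444 and 1751 and r with Ttr of -0.13. Igf2, a growth factor that the choroid plexus releases into the fluid, had means of 199 and 191 and r of 0.011. From here on, means are given for young and then aged rats (n = 6 each), and a pair of values in parentheses is the aged minus young log2 difference and its limma adjusted p. Among the transporters, Kcne2, a potassium channel subunit, had means of 52.7 and 73.5 (0.56, 0.653), Car14, a membrane carbonic anhydrase, 240 and 331 (0.48, 0.660), Kcnj13, a potassium channel, 48.2 and 59.99 (0.35, 0.715) and Slc13a4, a sulfate transporter, 143 and 151 (0.0095, 0.999). The smallest p of the 55 was that of Ace, angiotensin-converting enzyme, with signals of 58.9 to 74.5 in young and 79.5 to 106 in aged rats. All 6 aged rats lay above all 6 young in Ace, as for 71 of 13253 genes (0.536%), and its log2 difference was 0.54 (SE 0.086; limma adjusted p = 0.104), with r with Ttr of 0.14. Cldn1, a tight junction protein, had means of 48.2 and 59.5 (0.30, 0.603), Cdh3, a cadherin, 69.7 and 92.1 (0.37, 0.643), Prlr, the prolactin receptor, 61.3 and 68.2 (0.14, 0.923) and Htr2c, a serotonin receptor, 1057 and 1228 (0.23, 0.933). Otx2, the homeobox factor that choroid epithelium requires, was over the cutoff on 8 of 12 arrays, with means of 33.8 ± 22.3 in young and 28.2 ± 20.3 in aged rats and r with Ttr of -0.082. Foxj1, a factor of ciliated cells, had means of 27.8 and 42.2 (0.63, 0.734), and Rfx3, another, 862 and 743 (-0.22, 0.826).

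Across rats, the median r of these genes with Ttr was -0.10, against 0.023 for all genes, and 36 of the 55 (65.5%) were below 0, against 47.3% of all genes. An r over 0.5 was found for 2 of 55 (3.64%) and for 4.68% of all genes. The pair, named after their values were seen, was Sostdc1, a secreted antagonist of BMP and Wnt signals, at 0.66, and Slc31a1, a copper transporter, at 0.66. The signal of Slc31a1 lay between 419 and 522 in all 12 rats, and r of Sostdc1 without young rat 1 was 0.48. At the other end lay Vegfa, an angiogenic growth factor, at -0.63. Of the 39 genes over the cutoff on every array, none had a ratio of highest to lowest signal above 3.68, against 18.2 for Ttr. Of all 55, 10 had a ratio of at least 10, and in 8 of them the mean log2 signal was under the cutoff. The other 2, named after their values were seen, were Cp, the copper carrier ceruloplasmin, with a ratio of 15.5 and r with Ttr of -0.45, and Slc19a1, with a ratio of 10.7 and r of -0.22, both over the cutoff on 11 arrays. These correlations are descriptions, since all genes were read from the same 12 arrays and share their scaling.

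**Figure D5:**
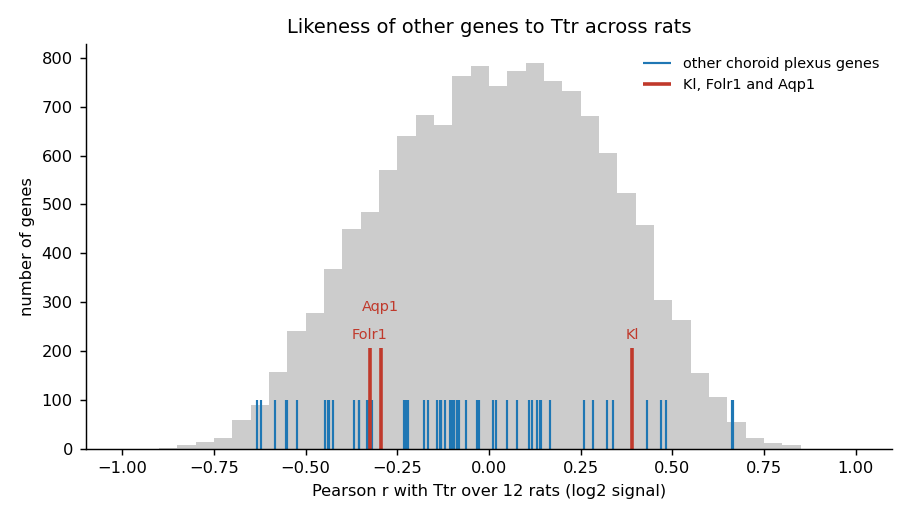
Number of genes (y axis) by Pearson r of log2 signal with Ttr over 12 rats (x axis), for all tested genes as grey bars, with blue ticks for the 55 other choroid plexus genes and red ticks for Kl, Folr1 and Aqp1. Kl lies at 0.39, Folr1 at -0.33 and Aqp1 at -0.29, and the blue ticks center near -0.10.

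The 12 genes with the highest r with Ttr over the 12 rats, of 13253, included none of the choroid plexus lists. Crybg2 led at 0.84, followed by Dohh (0.82), a hydroxylase that matures a translation factor, Pkp3 (0.82), a desmosome protein, Blzf1 (0.82), a Golgi protein, Dbh (0.81), the enzyme that makes noradrenaline, Sf3a1 (0.80), a splicing factor, Vasn (0.80), Cltb (0.80), a clathrin light chain, Fubp1 (0.79), Slc35f1 (0.79), Tmem216 (0.79), a ciliary protein, and Kit (0.79), a receptor kinase. Without young rat 1 their r lay between 0.59 and 0.82. Their ratios of highest to lowest signal were 1.34 to 10.5, below the 18.2 of Ttr, and the largest, that of Pkp3, came from a gene over the cutoff on 3 arrays only. This ranking over 13253 genes is a description and carries no test.

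The genes that act with the members were read from 6 lists. None of their genes was called, against 4 of all 13253 genes (0.0302%), so the absence says little about them. The counts of genes higher in aged rats below stand beside 56.9% of all genes. In the thyroid hormone and retinoid list, which holds the receptors, deiodinases and carriers of the ligands that transthyretin transports, 11 of 20 tested genes were higher in aged rats, with a median log2 difference of 0.027. The receptor genes Thra and Thrb had means of 1815 and 1632 (-0.15, limma adjusted p = 0.772) and of 3166 and 3090 (-0.031, 0.972) in young and aged rats. Rxra, a retinoid receptor, had 58.7 and 85.6 (0.64, 0.597), and Klf9, a thyroid hormone target, 4338 and 3849 (-0.17, 0.701). In the klotho and FGF23 list, 9 of 12 were higher, with a median of 0.11. Vdr, the vitamin D receptor, had 13.3 ± 8.14 (SD, n = 6) in young and 32.3 ± 6.51 in aged rats (log2 difference 1.54, SE 0.42; limma adjusted p = 0.381), and was over the cutoff on 8 arrays. Fgfr2, an FGF receptor, had 1080 and 1363 (0.31, 0.667), Trpv5, a calcium channel, 130 and 159 (0.28, 0.738), and Fgf23 itself was over the cutoff on 5 arrays.

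In the folate list, 5 of 11 were higher, with a median of -0.0042, and Slc46a1, the proton-coupled folate transporter, had 59.3 and 77.8 (0.40, limma adjusted p = 0.629). Folr2, the second folate receptor, had 57.6 and 82.1 (0.52, 0.738), Fpgs, which adds glutamates to folate, 93.8 and 112 (0.27, 0.777), and Slc19a1, the reduced folate carrier, 72.9 and 73.3 (-0.25, 0.952). Of the other aquaporins 6 of 8 were higher, with a median of 0.18, among them Aqp12a with 87.1 and 114 (0.36, 0.597), Aqp5 over the cutoff on 5 arrays (1.74, 0.693) and Aqp9 with 108 and 132 (0.27, 0.777). Of the other CLIC proteins, relatives of Clic6, 3 of 4 were higher, with a median of 0.096: Clic4 (0.15, 0.897), Clic2 (0.15, 0.920), Clic1 (0.039, 0.980) and Clic5 (-0.10, 0.968). Of the bicarbonate carriers and carbonic anhydrases, relatives and partners of Slc4a5, 9 of 14 were higher, with a median of 0.029. Car3, a carbonic anhydrase, had 42.1 ± 4.25 (SD, n = 6) in young and 67.6 ± 19.8 in aged rats (0.63, SE 0.19; limma adjusted p = 0.436), and Slc4a2, a chloride-bicarbonate exchanger, had 170 and 190 (0.15, 0.777). Under median centring, where the median of all genes was -0.047, the medians of the thyroid hormone and retinoid list and of the bicarbonate list were -0.044 and -0.041, and under quantile normalization, with 0.0019 for all genes, they were -0.0087 and 0.046. Genes higher in the 6 lists, in the order given, numbered 8, 8, 4, 5, 2 and 6 under median centring, against 37.8% of all genes. They numbered 8, 8, 5, 5, 3 and 9 under quantile normalization, against 50.8% of all genes.

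Markers of other cell types and regions that a cortical dissection could hold are given beside the members, and their part in the Ttr signals was not tested. The cortical neuron list held 10 tested genes, 4 higher and 6 lower in aged rats, with Slc17a7, a vesicular glutamate transporter, at 4556 and 4215 (-0.12, limma adjusted p = 0.726), and summed signals of 15662 to 19524 in young and 15048 to 17371 in aged rats. Of its other named genes, Camk2a, a kinase of excitatory neurons, had 2530 and 1917 (-0.39, 0.677) and Cux2, an upper-layer factor, 945 and 791 (-0.27, 0.746). The ependymal list, of the cells that line the ventricles, had 7 of 8 genes (87.5%) higher against 56.9% of all genes, or 5 of 8 (62.5%) against 50.8% under quantile normalization and 37.8% under median centring, with summed signals of 2458 to 5775 in young and 2932 to 4290 in aged rats and a median r with Ttr of 0.020. In the meningeal list, 8 of 14 were higher, with sums of 3440 to 11281 and 4285 to 11490 and a median r of 0.0013. Lum, a matrix proteoglycan of fibroblasts, had 124 and 78.2 (-0.75, 0.463). Fmod had 51.0 and 66.6 (0.41, 0.566), and Slc6a13 had 35.8 and 53.8 (0.60, 0.619). At an unadjusted limma p under 0.05, 3 of the 14 were higher and 1, Lum, was lower, against 8.28% of all genes in either direction. Ptgds, an abundant prostaglandin synthase of meninges, had 4707 and 6265 (r with Ttr -0.046). Dcn, another proteoglycan, had 278 and 222 (r with Ttr 0.62, or 0.38 without young rat 1). Red cell genes were higher in 4 of 4, with sums of 5008 to 9331 and 6052 to 9649, and endothelial genes in 10 of 10, with sums of 5005 to 6716 and 6135 to 7813, median r with Ttr of -0.023 and -0.13, and every tested gene of both lists was also higher under quantile normalization and median centring. Striatal genes were higher in 6 of 11, hippocampal genes in 5 of 9 and thalamic and hypothalamic genes in 8 of 11, with median r with Ttr of 0.097, 0.18 and 0.059. Single genes, named after their values were seen, lay far from these medians. Without young rat 1, r ran from -0.51 (Prox1) to 0.69 (Wfs1) in the hippocampal list. It ran from -0.46 (Synpo2) to 0.74 (Avp) in the thalamic and hypothalamic list. In the ependymal list it ran from -0.51 (Rarres2) to 0.83 (Nnat). Under quantile normalization and median centring, 5 of the 11 (45.5%) thalamic and hypothalamic genes were higher, against 50.8% and 37.8% of all genes. Drd1, a dopamine receptor of striatum that cortex also makes, reached r of 0.61 with Ttr at means of 346 and 322, and Drd2, another, 0.44. Of the 11 striatal genes, 2 had r over 0.5, against 4.68% of all genes, and 4 had r below 0, against 47.3% of all genes. The other gene over 0.5, named after its value was seen, was Ppp1r1b at 0.63. Without young rat 1, r was 0.32 for Ppp1r1b, 0.74 for Drd1 and 0.66 for Drd2.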

How the data were processed

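For 12 Affymetrix RAE230 2.0 arrays, the deposited table holds linear signal intensities. The methods describe gcRMA and a scaling target of 500. Besides GCRMA and R 2.7.1, the submitters' notes list MAS5, whose place in the order of steps is not given in the sources used here. Log2 was taken without further normalization, although the plan had assumed log2 values. Probe sets over 4.3 (log2) on at least 3 arrays were tested with limma 3.58.1 (R 4.3.3), aged against young without covariates, with Benjamini-Hochberg adjustment over 28193 probe sets. The code was tested on simulated data. Gene symbols came from the platform annotation: 20832 probe sets had 1 symbol, 436 several and 9831 none, and 20764 had a gene ID found in RefSeq. Correlations used 100000 resamples. Genes named were drawn from all members, the 3 smallest p and the 2 leading genes of each list, and the 12 genes most like Ttr. Members and lists were chosen with earlier results of these data known. TATAAA, median centring of the lists and the correlations within the lower code series were added after the data were seen. Replicates are separate rats. Python 3.11.15 and matplotlib 3.10.9 were used.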

Additional observations from a re-analysis of the deposited data

Results flagged for a closer look

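Single rats that stood apart from the other 5 of their age group were sought by the gap to the nearest rat over the group's whole range against Dixon's 95% limit in 172 groups of 86 probe sets. 13 groups had such a rat. Of these, 3 were among the genes most like Ttr, which were chosen on the same rats and count for nothing here. Apart from those genes, 10 of 148 groups had such a rat, where chance gives about 1 in 20, or 7.4, if signals are normally distributed. The gaps were taken on the deposited linear signals, on which a high signal stands farther apart than on the log2 scale used elsewhere. Whether the same rats stand apart on log2 signals was not tested. Among the members, Ttr was 1417 in young rat 1 (others 89.3 to 314) and the first Aqp1 probe set was 159.6 in young rat 6 (others 81.7 to 110). Among the other choroid plexus genes, Igf2 was 141.6 in young rat 5 (others 196 to 225) and Car14 was 400.8 in young rat 1 (others 176 to 240). Among the genes most like Ttr, Pkp3 was 63.47 in young rat 1 (others 6.60 to 13.8), Dbh was 66.74 in young rat 1 (others 21.5 to 35.7) and Cltb was 2080 in aged rat 2 (others 1656 to 1755). Among the lists of pathways and other cells, Prox1 was 374.8 (others 304 to 329) and Camk2a 4069 (others 2027 to 2514) in young rat 4. Slc46a1 was 35.99 in young rat 5 (others 58.9 to 68.1), Aqp9 was 147.1 in young rat 3 (others 92.3 to 112), Clic2 was 49.93 in aged rat 2 (others 94.9 to 115) and Clic5 was 33.66 in aged rat 3 (others 46.8 to 53.1).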

How the results depend on the processing

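No member was called under any of the 28 alternatives. Kl and the second Aqp1 probe set gave no value at a cutoff of 5.5, which they did not pass. The sign turned for Ttr within the higher code series (0.80), for Folr1 under quantile normalization (-0.081), median centring (-0.012), array weights (-0.044) and without aged rats 2 and 6 (-0.11), for Aqp1 with its probe sets averaged (-0.17), and for the second Aqp1 probe set within the lower series (0.85) and without aged rats 2 and 6 (0.037). Leaving out 1 rat gave -0.37 to 0.52 for Ttr, 0.73 to 1.40 for Kl, -0.088 to 0.14 for Folr1 (turned without young rat 3 or aged rat 6), 0.091 to 0.28 for the first Aqp1 probe set and -1.19 to -0.18 for the second Aqp1 probe set. The r with Ttr was 0.27 to 0.53 for Kl, -0.45 to -0.28 for Folr1 and -0.51 to 0.022 for Aqp1, and 0.30 for Aqp1 without the 2 rats farthest from the Ttr median. The cause was not tested. Over all probe sets, 7 were called, against 4 under quantile normalization, 3 under median centring, 2 with an intensity trend and robust variances, 2 without aged rats 2 and 6, and 0 within either code series (1312 and 1823 at an unadjusted limma p under 0.05), and 0 to 10 with 1 rat left out (0 without young rat 1 or aged rat 1, 3 or 6, and 1 when young rat 4 was dropped). In limma, 605 had p of 0.01 or less before adjustment (460 higher, 145 lower), against 334 with 1 probe set a gene, 331 with probe sets averaged, 303 and 377 within the lower and higher series, and 486 to 746 with 1 rat left out. The split was 271 higher and 221 lower under quantile normalization and 258 and 341 under median centring. Young and aged rats share subject numbers. Between same-numbered rats the 6 correlations of deviations were weak, at -0.028 to 0.11, and 2 of 6 young rats correlated best with their own number. Most same-numbered rats are also of the same code series, so number and series cannot be fully told apart. With the number as a replicate block, 2 probe sets were called and Kl differed by 1.05 (SE 0.26, limma unadjusted p = 0.0063, adjusted p = 0.365).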
